A study of Mus musculus with 4 samples.

Results

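The 8 genes described here are Hmgcs1, Idi1, Fdps, Fdft1, Sqle and Cyp51, which encode enzymes of cholesterol synthesis, and Insig1 and Srebf2, which encode proteins that control it. They were taken by name from a fixed list of target genes of the transcription factor SREBP2, and the level of each was that of its probe set with 1 gene symbol and the highest mean over the 4 arrays. All 8 were found among 19938 genes measured, and all 8 lay above the floor for expression on all 4 arrays. RNA from sorted cells of adult mouse small intestinal crypts was put on 4 Affymetrix arrays, 1 for each of 4 groups, in a study of what loss of Zip7 (Slc39a7), a zinc transporter of the endoplasmic reticulum (ER) and Golgi, does to crypt cells. Zip7 KO mice were Zip7flox/flox and control mice Zip7flox/+, and both carried villin-CreERT2 and Lgr5-EGFP-ires-CreERT2 and received tamoxifen for 2 days. The controls thus also carried 1 floxed copy and both Cre drivers. From each genotype came 2 sorted fractions, labelled Lgr5-Hi and Lgr5-Med (Lgr5-Mid in the titles). Villin drives Cre in the whole intestinal epithelium, whereas the Lgr5 allele, in which the reporter interrupts 1 copy of Lgr5, is known to be expressed in patches of crypts. The sources used here do not give the number of mice behind an array or say if the fractions of a genotype shared mice.

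Cholesterol is built from acetyl-CoA through mevalonate, isoprenoid diphosphates and squalene. When sterols run low in the ER membrane, SCAP carries SREBP2 to the Golgi, where it is cut and released to switch on nearly every enzyme of the pathway. When sterols are plentiful, INSIG proteins hold SCAP and SREBP2 in the ER. Dividing crypt cells need cholesterol for new membranes, and the gut epithelium is also a major site where it is made and absorbed.

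The promoters of the genes are shown first because the pathway is known for its shared control at the promoter. The RefSeq promoter table of the mouse assembly GRCm38.p6 held a window for 5 of the 8 genes, each of 300 bases from 250 before to 50 after an annotated start, written 5′ to 3′ as the table gives it. The windows lie at chr13:119690101-119690400 (plus strand) for Hmgcs1, at chr13:8885356-8885655 (plus strand) for Idi1, at chr5:4104648-4104947 (minus strand) for Cyp51, at chr5:28071162-28071461 (plus strand) for Insig1 and at chr15:82147019-82147318 (plus strand) for Srebf2. Capitals mark the sterol regulatory element TCACNCCAC, to which SREBP binds, and the box CCAAT, to which its partner NF-Y binds, on either strand.
Hmgcs1: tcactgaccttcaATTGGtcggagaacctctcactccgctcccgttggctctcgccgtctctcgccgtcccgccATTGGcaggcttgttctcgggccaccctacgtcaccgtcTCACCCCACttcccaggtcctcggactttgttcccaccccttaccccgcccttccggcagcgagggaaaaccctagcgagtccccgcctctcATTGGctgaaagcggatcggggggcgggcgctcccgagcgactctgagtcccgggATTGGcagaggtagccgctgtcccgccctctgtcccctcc
Idi1: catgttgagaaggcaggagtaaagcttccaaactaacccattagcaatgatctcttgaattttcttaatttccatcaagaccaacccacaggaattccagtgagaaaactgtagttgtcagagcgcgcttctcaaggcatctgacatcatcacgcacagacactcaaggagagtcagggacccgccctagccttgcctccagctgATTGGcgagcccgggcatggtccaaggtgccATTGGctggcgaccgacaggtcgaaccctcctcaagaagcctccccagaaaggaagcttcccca
Cyp51: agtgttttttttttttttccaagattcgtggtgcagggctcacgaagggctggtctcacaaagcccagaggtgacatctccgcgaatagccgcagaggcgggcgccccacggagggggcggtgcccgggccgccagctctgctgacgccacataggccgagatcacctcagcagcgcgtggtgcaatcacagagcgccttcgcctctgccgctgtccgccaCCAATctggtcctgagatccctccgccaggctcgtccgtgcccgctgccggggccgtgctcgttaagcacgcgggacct
Insig1: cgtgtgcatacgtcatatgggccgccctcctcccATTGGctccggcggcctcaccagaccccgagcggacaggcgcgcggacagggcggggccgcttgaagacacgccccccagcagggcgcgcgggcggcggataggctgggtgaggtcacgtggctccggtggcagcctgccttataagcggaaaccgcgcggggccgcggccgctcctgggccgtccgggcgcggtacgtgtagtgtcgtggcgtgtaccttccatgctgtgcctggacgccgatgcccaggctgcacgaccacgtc
Srebf2: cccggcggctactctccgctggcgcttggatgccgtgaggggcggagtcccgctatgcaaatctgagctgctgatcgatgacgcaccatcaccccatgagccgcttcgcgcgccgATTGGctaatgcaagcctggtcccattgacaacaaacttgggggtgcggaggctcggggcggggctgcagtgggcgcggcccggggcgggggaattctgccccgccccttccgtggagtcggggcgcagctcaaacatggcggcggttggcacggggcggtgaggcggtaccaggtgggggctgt

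The element TCACNCCAC was found in 1 of the 5 windows, that of Hmgcs1, at bases 114 to 122, and in 1.24% of all 32851 windows of the table. The box CCAAT was found in 5 of the 5 windows and in 37.4% of all windows, with 4 matches in Hmgcs1, 2 in Idi1 and 1 each in Cyp51, Insig1 and Srebf2. The box GGGCGG, which Sp1 binds and which is not in capitals here, was also found in 5 of 5, against 35.7% of all windows. CCAAT and GGGCGG stood together in 5 of the 5 windows and in 12.8% of all windows. No match of one of these motifs overlapped a match of another in the 5 windows. A match describes the letters in the window and is no evidence of binding, and the absence of a match says only that these letters are not there.

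The arrays correlated with r from 0.983 to 0.990 over all probe sets, and 11731 to 12099 genes lay above the floor on an array, which was percentile 95 of 1207 chemosensory receptor genes that the gut should not express (6.10 to 6.25 on the log2 scale). The epithelial markers Epcam, Cdh1, Krt8, Krt19, Vil1 and Cldn7 were above it on all arrays, while of 6 stromal and endothelial markers the collagens Col1a1, Col1a2 and Col3a1 were above it on all arrays, between 6.67 and 7.19, and Dcn, Pecam1 and Cdh5 at or below it on all. Lgr5 ran against the fraction labels, with 7.93 in the Lgr5-Hi and 11.24 in the Lgr5-Med array of Zip7 KO and with 7.79 and 10.97 in those of controls. The labels are kept as given, and Lgr5-Hi and Lgr5-Med name the labels and not the measured level of Lgr5. Slc39a7 was at 9.02 in Zip7 KO against 8.92 in control under the label Lgr5-Hi, and at 8.22 against 8.61 under Lgr5-Med. The sources used here do not place its probes inside or outside the deleted part. Xist was below the floor in both Zip7 KO arrays, at 5.59 and 5.43, and stood at 11.64 and 11.84 in the control arrays, so that the sex of the mice and the genotype cannot be told apart. Since a group is 1 array, it has no measured spread, and the differences below carry no test and no p-value.

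All 8 genes were higher in the array labelled Lgr5-Hi than in the array labelled Lgr5-Med, in Zip7 KO and in controls alike. The median of the 8 was 0.34 in Zip7 KO and 0.31 in controls on the log2 scale, where the medians of all genes compared were -0.0045 and -0.039. The differences ran from 0.22 for Cyp51 to 0.63 for Insig1 in Zip7 KO, and from 0.14 for Srebf2 to 0.55 for Insig1 in controls. Among all genes compared, 49.3% were above 0 in Zip7 KO and 43.3% in controls, and 32.3% of 11958 genes were above 0 in both. None of the 8 reached 2-fold, which 1.87% of genes did upwards in Zip7 KO and 0.669% in controls. Past 0.3 on the log2 scale, or 1.23-fold, were 5 of the 8 in Zip7 KO, where 16.3% of all genes were, and 5 of the 8 in controls, where 8.55% were. With quantile normalisation the count in Zip7 KO was 3, without Idi1 and Fdft1. With array medians centred the count in controls was 4, without Sqle. The 3 past 0.3 in both genotypes were Insig1, Fdps and Hmgcs1, against 5.85% of all genes. The directions of the 8 held under every scaling tried. In sorted populations such as these, more cells that express a gene and more RNA per cell cannot be told apart.

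**Figure D1:**
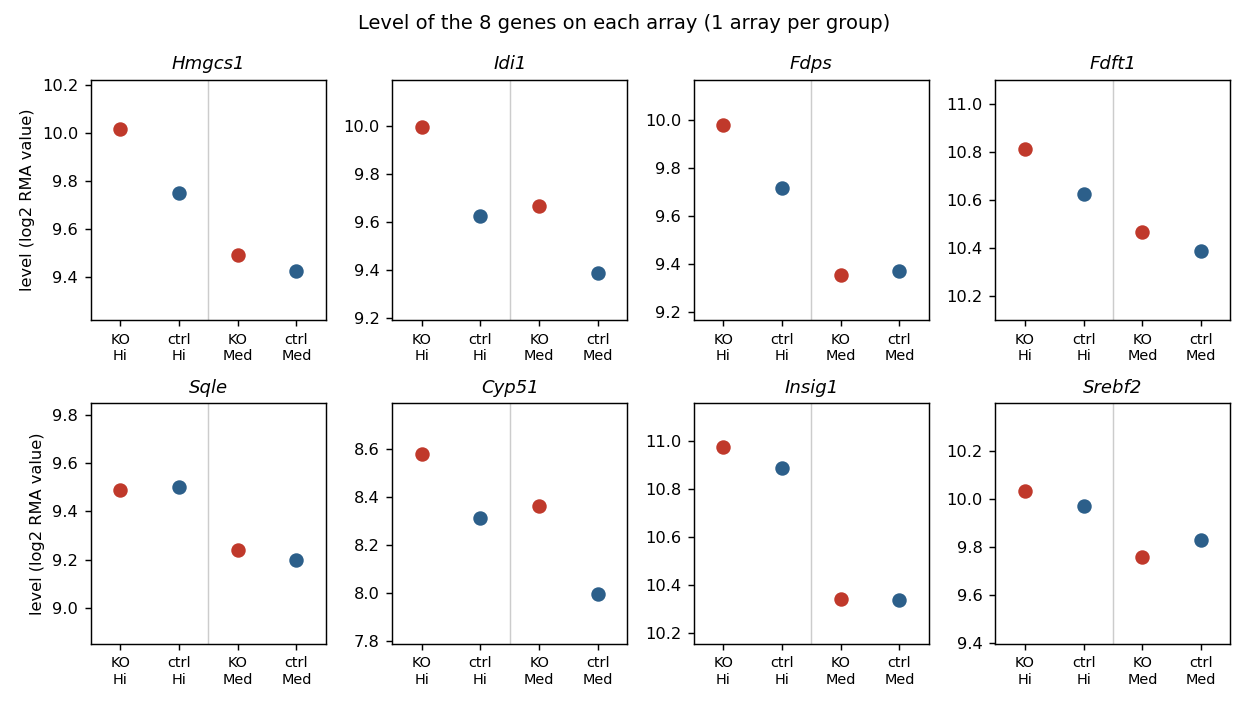
Level of each of the 8 genes on each array, as the log2 value that the authors deposited, with 1 point per array and 1 array per group (KO, Zip7 KO; ctrl, control; Hi and Med, the fraction labels). Each panel spans 1 log2 unit around its own middle, so heights compare within a gene only, and the points left of the grey line stand above those of the same colour right of it in every panel.

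Hmgcs1 encodes the synthase that makes HMG-CoA, a precursor of mevalonate. Its probe set 10412466 stood at 10.01 in the Lgr5-Hi array and 9.49 in the Lgr5-Med array of Zip7 KO, and at 9.75 and 9.43 in those of controls. Lgr5-Hi exceeded Lgr5-Med by 0.52 (1.44-fold) in Zip7 KO and by 0.32 (1.25-fold) in controls, and 7.36% and 7.58% of all genes compared had a larger one. Both Lgr5-Hi arrays lay above both Lgr5-Med arrays.

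Idi1 encodes the isomerase that turns isopentenyl diphosphate into dimethylallyl diphosphate, the starter of the isoprenoid chain. Probe set 10403413 stood at 9.996 in the Lgr5-Hi array and 9.67 in the Lgr5-Med array of Zip7 KO, and at 9.63 and 9.39 in those of controls. Here both Zip7 KO arrays lay above both control arrays, while the fractions overlapped between genotypes. Between fractions Idi1 differed by 0.33 in Zip7 KO and by 0.24 in controls. A second probe set of Idi1 gave 0.32 and 0.18. Cross-detection of its close relative Idi2 was not tested.

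Fdps encodes the synthase of farnesyl diphosphate, from which the sterol and non-sterol branches part. Probe set 10499483 stood at 9.98 in the Lgr5-Hi array and 9.36 in the Lgr5-Med array of Zip7 KO, and at 9.72 and 9.37 in those of controls. The fraction difference was 0.63 (1.54-fold) in Zip7 KO and 0.35 (1.27-fold) in controls, with 5.18% and 6.6% of genes above it. The Lgr5-Med arrays of both genotypes lay within 0.015 of each other, and both lay below both Lgr5-Hi arrays.

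Fdft1 encodes squalene synthase, which joins farnesyl units and so commits them to sterols. Probe set 10420730 stood at 10.81 in the Lgr5-Hi array and 10.47 in the Lgr5-Med array of Zip7 KO, and at 10.62 and 10.39 in those of controls. The fraction difference was 0.35 in Zip7 KO and 0.23 in controls, and a second probe set of the gene gave 0.28 and 0.22. Both Lgr5-Hi arrays were above both Lgr5-Med arrays on either probe set.

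Sqle encodes squalene epoxidase, the first oxygen-requiring step and a point of control of the pathway. Probe set 10424349 stood at 9.49 in the Lgr5-Hi array and 9.24 in the Lgr5-Med array of Zip7 KO, and at 9.50 and 9.20 in those of controls. It was the gene of the 8 whose highest array was not Zip7 KO Lgr5-Hi but control Lgr5-Hi, by 0.012. The fraction difference was 0.25 in Zip7 KO and 0.31 in controls, and both Lgr5-Hi arrays lay above both Lgr5-Med arrays.

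Cyp51 encodes the lanosterol demethylase, a cytochrome P450 of the ER. Probe set 10527920 stood at 8.58 in the Lgr5-Hi array and 8.36 in the Lgr5-Med array of Zip7 KO, and at 8.31 and 7.998 in those of controls. As for Idi1, both Zip7 KO arrays lay above both control arrays, and the Lgr5-Hi array of controls was below the Lgr5-Med array of Zip7 KO. The fraction difference was 0.22 in Zip7 KO and 0.32 in controls.

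Insig1 encodes the ER anchor that retains SCAP, and is itself a target of SREBP. Probe set 10520362 stood at 10.97 in the Lgr5-Hi array and 10.34 in the Lgr5-Med array of Zip7 KO, and at 10.89 and 10.34 in those of controls. Its fraction difference was the largest of the 8 in both genotypes, at 0.63 (1.55-fold) in Zip7 KO and 0.55 (1.46-fold) in controls, and 5.1% and 2.65% of genes had a larger one. Both Lgr5-Hi arrays lay above both Lgr5-Med arrays, which differed from each other by 0.0062.

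Srebf2 encodes SREBP2 itself. Probe set 10425695 stood at 10.04 in the Lgr5-Hi array and 9.76 in the Lgr5-Med array of Zip7 KO, and at 9.97 and 9.83 in those of controls. Its range over the 4 arrays, 0.27, was the smallest of the 8. The fraction difference was 0.27 in Zip7 KO and 0.14 in controls, with 18% and 22.1% of genes above it, and both Lgr5-Hi arrays were above both Lgr5-Med arrays. The miRNA gene Mir33, which lies in an intron of Srebf2, was below the floor on all 4 arrays, at 3.93 and 3.97 in Zip7 KO and at 3.99 and 3.82 in controls.

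In 6 of the 8 genes both Lgr5-Hi arrays stood above both Lgr5-Med arrays, an arrangement found in 24% of the 12404 genes above the floor on any array. In the same 6 the smaller of the fraction differences exceeded the larger of the genotype differences in size, which held for 10.6% of those genes. The exceptions were Idi1 and Cyp51, in which both Zip7 KO arrays stood above both control arrays, as in 14.2% of those genes. The highest array was Zip7 KO Lgr5-Hi in 7 of the 8, as in 26.8% of those genes. The lowest was control Lgr5-Med in 6 of the 8, as in 16.9% of those genes, and Zip7 KO Lgr5-Med in 2, Fdps and Srebf2.

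**Figure D2:**
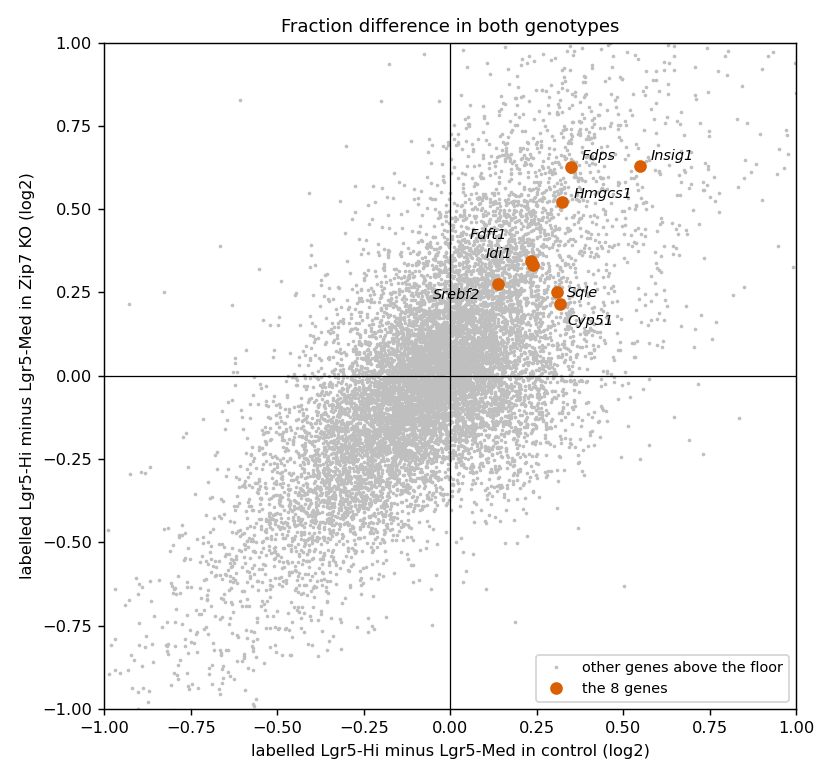
Difference between the arrays labelled Lgr5-Hi and Lgr5-Med in Zip7 KO (vertical) against the same in controls (horizontal), in log2 units, for 12404 genes above the floor on any array, of which 347 lie outside the plotted range. The 8 genes (orange) all lie in the upper right quadrant, and Insig1 lies farthest out with 0.63 and 0.55.

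Of 12 other enzymes of the pathway analysed here, 10 were higher in the Lgr5-Hi array in both genotypes, as were 32.3% of 11958 genes. The median of the 12 was 0.30 in Zip7 KO and 0.26 in controls. Past 0.3 were 6 in Zip7 KO, where 16.3% of all genes were, and 2 in controls, where 8.55% were. Upstream of Idi1, the mevalonate kinases Mvk and Pmvk gave 0.21 and 0.24 in Zip7 KO and 0.27 and 0.25 in controls. The decarboxylase Mvd, which makes isopentenyl diphosphate, stood at 8.34 against 7.73 in Zip7 KO and at 8.07 against 7.82 in controls, differences of 0.62 and 0.26.

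Beyond squalene epoxide, the cyclase Lss gave 0.53 in Zip7 KO and 0.30 in controls, and the methyl oxidase Msmo1, at 9.49 against 8.85 and at 9.24 against 8.88, gave 0.64 and 0.36. The isomerase Ebp gave 0.53 and 0.26 and the desaturase Sc5d 0.43 and 0.40. Smaller were the differences of Hsd17b7, 0.36 and 0.091, of Nsdhl, 0.16 and 0.16, and of the last reductase Dhcr7, 0.21 and 0.17. The 2 enzymes that went the other way, Lbr and Tm7sf2, both encode sterol C14 reductases, which act right after Cyp51. Lbr, also a lamin receptor of the nuclear envelope, gave -0.12 in Zip7 KO and -0.088 in controls, and Tm7sf2 gave -0.21 and -0.14, with the same signs under every scaling tried.

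**Figure D3:**
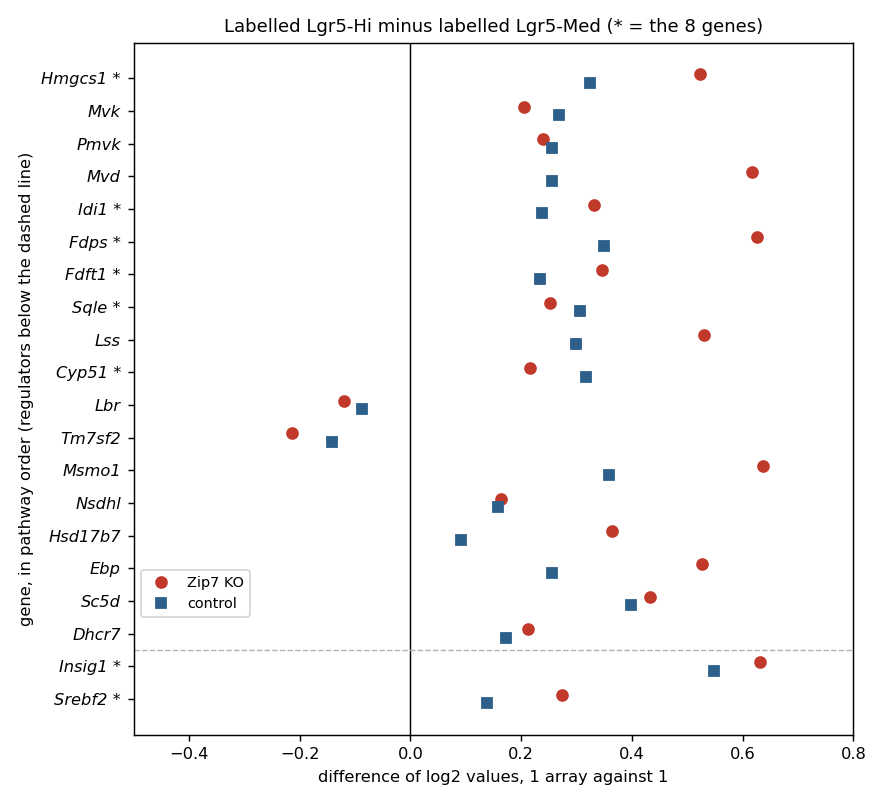
Difference of the log2 values of the arrays labelled Lgr5-Hi and Lgr5-Med (horizontal) for each measured enzyme from top to bottom in the order of the pathway, and for Insig1 and Srebf2 below the dashed line, in Zip7 KO (circles) and controls (squares); stars mark the 8 genes. All points but those of Lbr and Tm7sf2 lie to the right of 0.

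Apart from Insig1 and Srebf2, the genes of proteins that handle SREBP did not share this difference as a list. Of the 5 other regulators measured, 2 were higher in the Lgr5-Hi array of Zip7 KO and 1 in that of controls. Among all genes, 49.3% and 43.3% were. The medians of the 5 were -0.071 and -0.050, and the second turned positive after quantile normalisation and after removal of the trend on mean level. Scap, the escort of SREBP, gave -0.087 and -0.15, and Mbtps1, the first of the proteases that cut it, -0.071 and -0.084. Srebf1, which encodes the SREBP of fatty acid synthesis, gave 0.12 and 0.10. Insig2, the second INSIG, stood at 8.05 against 7.71 in Zip7 KO and at 8.11 against 8.14 in controls, so that 0.34 stood beside -0.031, and the control value turned positive under at least 1 alternative. Rnf139, an ER ubiquitin ligase, gave -0.083 and -0.050, and its control value also turned positive under at least 1 alternative.

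Genes of cholesterol uptake and transport were split between the fractions. Npc1l1, the importer of dietary cholesterol at the brush border, gave 0.70 in Zip7 KO and 0.11 in controls, and the sterol carrier Stard4 gave 0.41 and 0.14. Npc1, which exports cholesterol from lysosomes, was lower in the Lgr5-Hi array by -0.40 and -0.43, and its partner Npc2 gave -0.012 and -0.28. Tmem97, a sterol-regulated membrane protein, gave 0.054, which turned negative after quantile normalisation, and 0.062. The list had 3 of 5 members higher in each genotype, where 49.3% of all genes were in Zip7 KO and 43.3% in controls.

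Among the lists around the pathway, that of fatty acid synthesis spread more widely than the enzymes of cholesterol synthesis in both genotypes. Of 11 SREBP1 targets of fatty acid synthesis above the floor, 4 were at least 0.3 higher and 4 at least 0.3 lower in the Lgr5-Hi array of Zip7 KO, and 4 and 3 in that of controls. Among all genes, 16.3% in Zip7 KO and 8.55% in controls were at least 0.3 higher, and the share at least 0.3 lower was not computed. The desaturase Scd2 gave 0.56 in Zip7 KO and 0.73 in controls, the elongase Elovl6 0.97 and 0.51, and the NADPH-producing malic enzyme Me1 1.12 and 0.94. The desaturase Fads2 gave -0.58 and -0.49 and the elongase Elovl5 -0.45 and -0.295. These genes were picked by their genotype differences, and the lowest values of the list were -0.91 in Zip7 KO and -0.75 in controls. In the non-sterol branches, 4 of 7 were higher in Zip7 KO and 1 of 7 in controls, and among the efflux and LXR genes 4 of 6 and 3 of 6. Above 0 were 49.3% of all genes in Zip7 KO and 43.3% in controls. The genes of the sterol exporter, Abcg5 and Abcg8, gave 0.82 and 0.56 in Zip7 KO and -0.032 and -0.20 in controls, the first control value turning positive under at least 1 scaling.

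**Figure D4:**
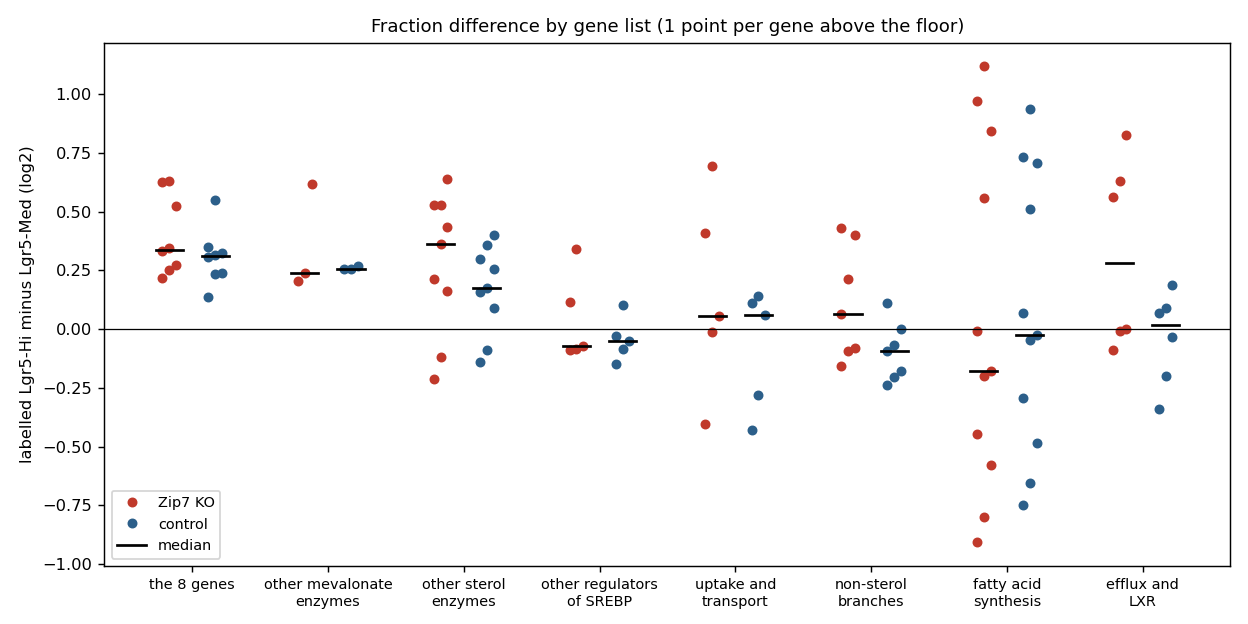
Difference between the arrays labelled Lgr5-Hi and Lgr5-Med in log2 units (vertical) by gene list, with 1 point per gene above the floor, Zip7 KO left of control in each list, and a bar at the median. The 8 genes lie between 0.14 and 0.63 with none below 0, while the fatty acid synthesis genes run from -0.91 to 1.12.

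Markers of cell types moved with the fraction labels. All 6 markers of Lgr5-positive crypt base cells were lower in the Lgr5-Hi arrays, with summed linear signals of 8707 in the Lgr5-Hi and 21633 in the Lgr5-Med array of Zip7 KO, and of 9876 and 19345 in those of controls. All 6 Paneth cell markers were higher, with sums of 21680 and 10510 in Zip7 KO and of 31383 and 21963 in controls. Of 10 enterocyte markers, 9 were higher in Zip7 KO and 6 in controls, with sums of 30941 and 24973 in Zip7 KO and of 29889 and 32400 in controls. No marker of these 3 lists was at or below the floor on any array. All 9 lymphocyte markers were lower in the Lgr5-Hi array of controls, with a median of -0.41. In Zip7 KO, 5 of the 7 lymphocyte markers above the floor on either array were lower and 2 higher, with a median of -0.22. Of the 6 epithelial markers, 5 were higher in Zip7 KO and 4 in controls, with medians of 0.23 and 0.095. For the 8 genes the sums were 9027 and 6703 in Zip7 KO and 8012 and 6409 in controls. The part of the cell types in the fraction differences of the 8 genes was not tested.

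In 6 of the 8 genes Zip7 KO and control differed less than the fractions did, the exceptions being Idi1 and Cyp51. Under the label Lgr5-Hi 7 of the 8 were higher in Zip7 KO, where 55% of all genes were, with a median of 0.22 beside 0.022 for all genes. The median of the 8 was 0.14 with quantile normalisation and with the trend on mean level removed. The largest differences were those of Idi1, 0.37 (1.29-fold), Cyp51, 0.27, Hmgcs1, 0.26, and Fdps, 0.26, and 4.88%, 10.4%, 10.6% and 10.8% of genes lay above them. Fdft1 gave 0.19, Insig1 0.088 and Srebf2 0.066, the last turning negative after quantile normalisation and after removal of the trend on mean level. Sqle gave -0.012, which turned positive with array medians centred. Under the alternatives Hmgcs1 came as low as 0.18, Fdft1 as 0.10 and Insig1 as 0.0055. Of the 8, Idi1 alone was past 0.3, as were 7.98% of all genes upwards, and none was past 2-fold, which 0.25% of genes were upwards. The count past 0.3 was 4 with array medians centred, when Hmgcs1, Fdps and Cyp51 joined Idi1, and 0 with quantile normalisation and with the trend removed.

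Under the label Lgr5-Med 6 of the 8 were higher in Zip7 KO, where 44.1% of all genes were, with a median of 0.054, or up to 0.082 under an alternative, beside -0.026 for all genes. Cyp51 gave 0.37 (1.29-fold) and Idi1 0.28 (1.21-fold), and 2.25% and 5.51% of genes lay above them. The others lay close to 0. Fdft1 gave 0.077, Hmgcs1 0.065, Sqle 0.042 and Srebf2 -0.070. Insig1, at 0.0062, and Fdps, at -0.015, turned sign under at least 1 scaling. Past 0.3 was Cyp51 alone of the 8, joined by Idi1 with medians centred and with quantile normalisation, and 4.35% of all genes were, while 0.0653% were past 2-fold upwards.

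Higher in Zip7 KO under both labels were 5 of the 8, Hmgcs1, Idi1, Fdft1, Cyp51 and Insig1, against 30% of 11827 genes, and Idi1 and Cyp51 had the 2 largest differences under either label. The second probe set of Idi1 gave 0.39 under Lgr5-Hi and 0.25 under Lgr5-Med. Subtracting the Lgr5-Med from the Lgr5-Hi genotype difference gave a value that was largest for Fdps, at 0.28, and Hmgcs1, at 0.20, and lowest for Cyp51, at -0.10, and under the alternatives these came as low as 0.16, 0.090 and -0.23. Its median was 0.10 for the 8 genes and 0.057 for all genes, and 6 of the 8 were above 0, as were 60.5% of all genes. With quantile normalisation these medians were 0.012 and -0.0083. These values were not tested.

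**Figure D5:**
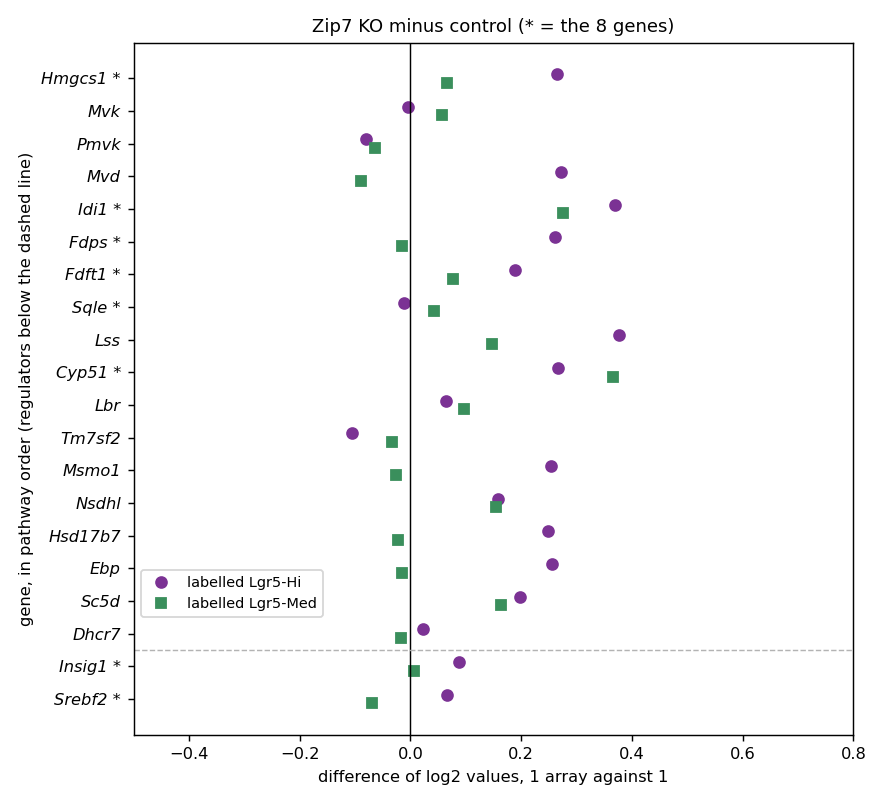
Difference of the log2 values of the Zip7 KO and control arrays (horizontal) for the same genes in pathway order, under the labels Lgr5-Hi (circles) and Lgr5-Med (squares); stars mark the 8 genes. The points of Idi1 and Cyp51 lie between 0.27 and 0.37 under both labels, while the other squares lie between -0.088 and 0.16.

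Among the 12 other enzymes, 9 were higher in Zip7 KO under Lgr5-Hi, where 55% of all genes were. Their median was 0.18 (0.10 with quantile normalisation). Under Lgr5-Med 5 of the 12 were higher, where 44.1% of all genes were. The median there was -0.015 and turned positive under the 3 alternatives of scaling and trend. Lss gave 0.38 under Lgr5-Hi and 0.15 under Lgr5-Med, Sc5d 0.20 and 0.16, and Nsdhl 0.16 and 0.15. Mvd gave 0.27 and -0.088, Msmo1 0.25 and -0.026, Ebp 0.26 and -0.014, and Hsd17b7 0.25 and -0.023. Of these negative values that of Mvd kept its sign under every scaling. Tm7sf2 gave -0.11 and -0.033, the second turning positive under at least 1 alternative, and Pmvk gave -0.080 and -0.064.

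Of the other regulators, Insig2 was lower in Zip7 KO under Lgr5-Med, at 7.71 against 8.14 in control, a difference of -0.43, and gave -0.059 under Lgr5-Hi. Rnf139 gave 0.10 and 0.14. Tmem97 was higher under both labels, at 11.56 in Zip7 KO against 11.27 in control and at 11.51 against 11.21, differences of 0.29 and 0.30. Npc1l1 gave 0.018 under Lgr5-Hi, which turned negative under at least 1 alternative, and -0.56 under Lgr5-Med.

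The neighbouring lists were split between the genotypes. Of the 7 non-sterol genes 5 were higher in Zip7 KO under Lgr5-Hi and 2 under Lgr5-Med, of the 11 fatty acid genes 5 and 6, and of the 6 efflux genes 3 and 0. Among all genes, 55% and 44.1% were. Nus1, a subunit of the dolichol-making prenyltransferase, gave 0.50 under Lgr5-Hi and 0.10 under Lgr5-Med, and Ggps1, the synthase of geranylgeranyl diphosphate, 0.31 and 0.29. Dhdds, the partner of Nus1, gave 0.25 and -0.27. Scd2 had 10.92 in Zip7 KO against 10.20 in control under Lgr5-Hi and 10.37 against 9.46 under Lgr5-Med, differences of 0.73 and 0.90. At the low end, Acly, which makes cytosolic acetyl-CoA, gave -0.28 and -0.031, the second turning positive under at least 1 alternative, and Me1 gave -0.18 and -0.37. Abcg5 and Abcg8 gave 0.46 and 0.47 under Lgr5-Hi and -0.40 and -0.30 under Lgr5-Med. Abcg1 and Abca1, which export cholesterol to lipoproteins, gave -0.36 and -0.10 under Lgr5-Hi and -0.17 and -0.36 under Lgr5-Med.

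Markers of some cell types moved with the genotype too. The 9 lymphocyte markers were all lower in Zip7 KO under both labels, with summed signals of 1278 against 2678 in control under Lgr5-Hi and of 1424 against 3803 under Lgr5-Med, and Cd3g and Ptprc were below the floor in both Zip7 KO arrays. The 6 Paneth markers were all lower in Zip7 KO under both labels. Of the 10 enterocyte markers, 5 were lower under Lgr5-Hi and 10 under Lgr5-Med, with medians of -0.053 and -0.58. The 6 markers of Lgr5-positive crypt base cells had medians of -0.11 and 0.025, and the 6 epithelial markers 0.085 and 0.028. The 3 collagens gave -0.18 and 0.073. Among all genes, 55% and 44.1% were higher in Zip7 KO. The part of the cell types in the genotype differences of the 8 genes was not tested, and neither was that of the sex of the mice.

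The genes differed in the shape of their profile over the 4 arrays. The closest pair was Hmgcs1 and Fdps, at a Euclidean distance of 0.085 between profiles centred on their own means, followed by Idi1 and Cyp51 at 0.098. The farthest pair was Cyp51 and Insig1, at 0.43. The mean centred profile of the 8 was 0.27 in the Lgr5-Hi and -0.13 in the Lgr5-Med array of Zip7 KO, and 0.084 and -0.22 in those of controls. Of 11293 genes above the floor on all 4 arrays, the 5 nearest to it outside the list were Kctd9, Rps6kb2, Mfsd8, Ino80c and Arpc5, at distances of 0.026 to 0.043. Fdft1 was the nearest of the 8 themselves, at rank 20 with 0.065, and Insig1 the farthest, at rank 1251 with 0.25. A profile of 4 arrays holds few values, so many genes lie this close.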

How the data were processed

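The 4 arrays, 1 per group, carry log2 values for each probe set, made by the authors with RMA per the submitters' processing notes. The log base was inferred from the range, 3.08 to 14.6, and the sources used here do not give the software version, annotation or build. All 4 columns were used and 0 left out. Of 35557 probe sets, 21789 had 1 gene symbol and were used, of which 21698 matched the RefSeq table of GRCm38.p6 by Entrez ID.

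A comparison took the genes that passed the floor on either array, without the receptor genes. Differences were counted past 2-fold and past 0.3 on the log2 scale. On simulated data the differences recovered known shifts, while the count past 0.3 was not tested there. A summed linear signal adds 2 to the power of each log2 value, in arbitrary units. The number of arrays limits the precision. The genes, lists and thresholds were chosen with earlier results of these data known. The measured enzymes, regulators and uptake genes could be named, and of the other lists the 2 highest and 2 lowest of each genotype comparison. Likeness named the 5 nearest profiles. Alternatives were centred array medians, quantile normalisation, removal of a lowess trend on mean level (span 0.3), the mean of a gene's probe sets, a floor at percentile 99 and no floor. Python 3.11.15, pandas 2.3.3 and statsmodels 0.14.6 were used.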

Additional observations from a re-analysis of the deposited data

Results flagged for a closer look

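The difference between Zip7 KO and control had opposite signs under the labels Lgr5-Hi and Lgr5-Med for several genes, with 1 array behind each value, and these opposite signs were not tested. Opposite signs are common when differences lie near 0. Of all genes, 55% were above 0 under Lgr5-Hi, 44.1% under Lgr5-Med and 30% of 11827 under both. The share of all genes with opposite signs was not computed, so the genes below are not set apart from the rest. Among the 8 genes they were Sqle, Fdps and Srebf2, where the Lgr5-Hi difference less the Lgr5-Med difference was -0.054, 0.28 and 0.14 on the log2 scale. Among the other enzymes it was -0.062 for Mvk, 0.36 for Mvd, 0.28 for Msmo1, 0.27 for Hsd17b7, 0.27 for Ebp and 0.039 for Dhcr7. Among the uptake and transport genes it was 0.58 for Npc1l1, 0.27 for Npc2 and 0.27 for Stard4. Insig2 was higher in the Lgr5-Hi array than in the Lgr5-Med array of Zip7 KO and lower in that of controls, and the difference of these differences was 0.37. For Sqle, Fdps, Srebf2, Mvk, Msmo1, Hsd17b7, Ebp, Dhcr7, Npc1l1 and Insig2 at least 1 of the paired values turned sign under a processing alternative, whereas Mvd, Npc2 and Stard4 kept their opposite signs under every alternative tried. In the neighbouring lists the genotype difference had opposite signs under the labels for Dhdds (0.52), Elovl6 (0.46), Abcg5 (0.86) and Abcg8 (0.76), and these signs also held under every alternative tried. The difference between fractions had opposite signs in the genotypes for Dhdds, Abcg5 and Abcg8, and for Nus1 (0.40), Acly (-0.25) and Mylip (-0.097), of which Abcg5, Nus1 and Mylip turned sign in 1 genotype under at least 1 alternative. None of these was tested.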

How the results depend on the processing

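Under all 6 alternatives the 8 genes kept their sign between fractions in both genotypes. Their median there became 0.26 in Zip7 KO with quantile normalisation, and in controls 0.37 with quantile normalisation and 0.38 with the trend on mean level removed, where the other enzymes had 0.31 and 0.31. Under Lgr5-Hi the median genotype difference became 0.14 and 0.14 for the 8 genes and 0.10 and 0.097 for the other enzymes under the same 2 alternatives. Under Lgr5-Med that of the other enzymes, -0.015, turned to 0.0094 with medians centred, 0.043 with quantile normalisation and 0.024 with the trend removed. The Lgr5-Hi less the Lgr5-Med genotype difference became 0.012 and 0.024 for the 8 genes, and for the other enzymes turned from 0.036 to -0.076 and -0.052, with quantile normalisation and with the trend removed. The number of the 8 genes past 0.3 became 3 between the fractions of Zip7 KO with quantile normalisation, and 4 between those of controls with medians centred. Between genotypes it became, under Lgr5-Hi, 4 with medians centred, 0 with quantile normalisation and 0 with the trend removed, and under Lgr5-Med 2 with medians centred and 2 with quantile normalisation. Among single genes, Sqle turned to 0.037 under Lgr5-Hi and Fdps to 0.0097 under Lgr5-Med with medians centred. With quantile normalisation Srebf2 turned to -0.019 under Lgr5-Hi, Fdps to 0.015 under Lgr5-Med, and Idi1 to -0.020 for the difference of the genotype differences. With the trend removed Srebf2 turned to -0.017 under Lgr5-Hi and Insig1 to -0.0034 under Lgr5-Med. The cause of these turns was not tested. The floor at percentile 99, no floor and the mean of probe sets moved no median of the 8 genes or of the other enzymes by more than 0.05. No paired analysis was possible because each group is 1 array and the labels give no replicate numbers. With 1 array per group, no difference can be set against the spread between mice, and genotype cannot be told apart from sex.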
